A study of Zea mays with 6 samples.

Results

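Auxin carriers are the membrane proteins that move auxin into, out of and within cells. The members described here are the rows of the deposited maize table whose gene ID is 1 of 5 IDs fixed for auxin carriers, and all 5 were found among its 5546 genes. They are auxin import carrier 1 (AIC1, GRMZM2G129413), an AUX1/LAX gene with no name in the table (GRMZM2G149481), ABC transporter B family member 19 (ABCB19, GRMZM2G072850), PIN5 (GRMZM2G025742) and PIN9 (GRMZM5G859099). RNA-seq compared 3 libraries of WT, the inbred line B73, with 3 libraries of zmte1-2, an EMS-induced recessive mutant backcrossed to B73 that carries a premature stop codon in the RNA-binding protein gene ZmTE1. Both genotypes were grown in the field for 28 days, and stem tissue with nodes was taken, with the internodes according to the labels and without them according to the methods. The sources used here do not say how many plants gave each library or whether libraries came from separate plants. The sample titles number the libraries of each genotype Node1 to Node3, and the methods state that 3 nodes were collected. The titles do not say whether these numbers stand for replicates or for positions along the stem. The tests below therefore weigh a difference against the variation among these 6 libraries, which may be technical or positional. The labels spell the mutant zmte1 and zmet1, and its columns in the table carry the first name of the line.

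Auxin is taken up into cells by AUX1/LAX proteins, which carry it across the plasma membrane together with protons. It leaves cells through PIN proteins, whose placement on 1 side of the cell gives the stream its direction, and through ABCB transporters, which use ATP. In stems this transport supplies the auxin that cell elongation and vascular development respond to, and in maize the loss of an ABCB gene, brachytic2, shortens the stalk internodes.

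Levels are given in FPKM, by definition fragments per kilobase of transcript and per fixed total of fragments, so that levels of different genes can be set side by side. Which gene length went into these values is not stated, and the table lists only the genomic span. Comparisons of level between genes carry that limit. The sources used here give no number of fragments behind a value, so how precise a low FPKM is cannot be said. The table lists only genes that the authors had called as different between these same libraries, by a p-value and a minimum fold. A difference between the genotypes in a listed gene is therefore not independent evidence. ZmTE1 itself (GRMZM2G085113) was listed at 0.51, 1.19 and 1.0 FPKM in WT libraries 1 to 3 and at 0.33, 0.1 and 0.49 FPKM in zmte1-2 libraries 1 to 3. The meristem gene knotted-1 (GRMZM2G017087), a marker of node and apical meristems, was present in every library, from 75.29 to 142.7 FPKM in WT and from 16.97 to 81.65 FPKM in the mutant. Among the mutant libraries, library 2 was the least like the others. Across the listed genes its log2 values correlated at r = 0.782 with library 1 and 0.699 with library 3, while those 2 correlated at 0.944 with each other, with genes not being independent replicates. With WT libraries 1, 2 and 3 it correlated at 0.761, 0.774 and 0.708, each above its value with mutant library 3. WT library 1 correlated at 0.870 and 0.894 with WT libraries 2 and 3, which correlated at 0.948. The summed FPKM of 33 leaf genes of the photosystems, antennae and Rubisco ranged from 314 to 1205 in WT and from 163 to 238 in zmte1-2. Of these genes 28 could be tested, and all had a lower estimate, beside 2688 of all 3987 tested genes. As lower 13 passed, beside 34.2% of all tested genes. Their part in the results on the carriers was not tested. In bulk tissue fewer cells of a type and less RNA per cell cannot be told apart.

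Every carrier had a lower mean in zmte1-2, and in 4 of the 5 the highest mutant library lay below the lowest WT library. The same held for 48.8% of all listed genes. The AUX1/LAX genes and ABCB19 had WT means from 12.5 to 32.4 FPKM, and PIN5 and PIN9 stayed under 1 FPKM in every library. For the test, log2(FPKM + 0.5) was compared between genotypes with limma in the 3987 genes with at least 1 FPKM in at least 3 libraries, with Benjamini-Hochberg adjustment over these genes. AIC1, GRMZM2G149481 and ABCB19 could be tested. Of all tested genes 2688 had a lower estimate in zmte1-2. AIC1 and ABCB19 passed as lower at an adjusted p under 0.05, and GRMZM2G149481 did not, while 34.2% of all tested genes passed as lower. No carrier passed as higher with limma, also none at an unadjusted p under 0.05, beside 6.02% of all tested genes that passed as higher. These shares depend on the scaling and on single libraries. After median-of-ratios rescaling 200 genes were lower and 590 higher of 3882 tested, and with 1 library left out 1 to 1949 were lower and 1 to 805 higher of 3987. Against a background this large the number of carriers called says nothing particular about carriers.

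**Figure D1:**
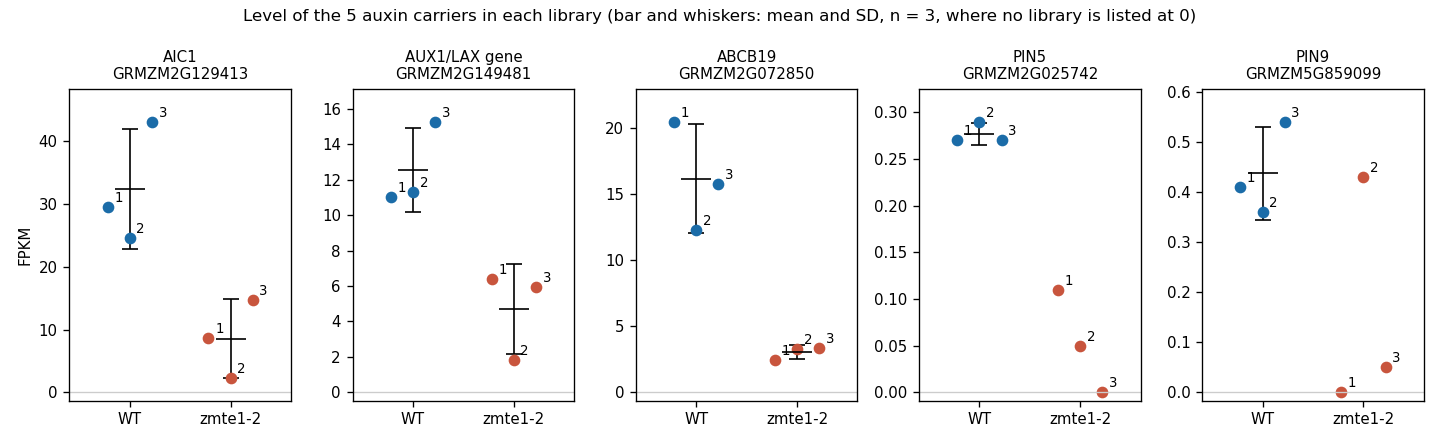
Points give the FPKM of each library for the 5 carriers, with 1 panel per gene, its own vertical axis in FPKM from 0, WT on the left and zmte1-2 on the right, and library numbers beside the points. Bars and whiskers are the mean and SD of 3 libraries, left out where a library is listed at 0. The genotypes are separate for AIC1, GRMZM2G149481, ABCB19 and PIN5, and zmte1-2 library 2 of PIN9 lies within the WT range.

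AIC1 was the most abundant of the carriers and an influx carrier of the AUX1/LAX family by name and by KEGG orthology. It lies on chromosome 1 from 119659886 to 119663853 on the minus strand in the table's own coordinates, for which no genome build is named. AIC1 stood at 29.49, 24.55 and 43.1 FPKM in WT libraries 1 to 3 and at 8.62, 2.31 and 14.79 FPKM in zmte1-2 libraries 1 to 3. The genotypes did not overlap, with the highest mutant library below the lowest WT library, and zmte1-2 library 2 was the lowest of all. The mean fell from 32.4 ± 9.61 to 8.57 ± 6.24 FPKM (SD, n = 3), or 26.5% of the WT level, with a log2 fold change of -2.13 (SE 0.66, limma adjusted p = 0.0442). An exact permutation test over the 6 libraries gave p = 0.10 (two-sided), the smallest that 3 against 3 can give. The call was close to the threshold. It was lost when WT library 1, 2 or 3 or zmte1-2 library 1 was left out (adjusted p = 0.112, 0.0676, 0.142 and 0.118 in that order, limma) and kept without zmte1-2 library 2, where the log2 fold change was -1.44, or without library 3. After median-of-ratios rescaling of the table the log2 fold change was -1.02 and the adjusted p from limma was 0.371. This rescaling moved the median log2 fold change of all tested genes from -1.08 to -0.08, and it assumes no overall shift in a table whose genes were chosen for being changed.

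GRMZM2G149481 carries the same AUX1/LAX orthology, and its protein is described only as uncharacterized. It lies on chromosome 1 from 33322465 to 33326460 on the plus strand, with 5 transcripts listed. GRMZM2G149481 stood at 11.02, 11.31 and 15.27 FPKM in WT libraries 1 to 3 and at 6.42, 1.81 and 5.95 FPKM in zmte1-2 libraries 1 to 3. In GRMZM2G149481, as in AIC1, WT library 3 was the highest and zmte1-2 library 2 the lowest. The other libraries of each genotype were in the opposite order to that of AIC1. Its WT mean was 12.5 ± 2.37 FPKM and its mutant mean 4.73 ± 2.54 FPKM (SD, n = 3), with a log2 fold change of -1.46 (SE 0.52, 95% interval -2.68 to -0.24) and a limma adjusted p of 0.0554. It passed only without zmte1-2 library 2 (log2 fold change -0.95, limma adjusted p = 0.0471) and without both that library and WT library 1 (-1.03, limma adjusted p = 0.0451). The difference was smaller without library 2, and it passed.

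The ratio of AIC1 to GRMZM2G149481 within a library does not depend on how libraries are scaled. It was 2.68, 2.17 and 2.82 in WT libraries 1 to 3 and 1.34, 1.28 and 2.49 in zmte1-2 libraries 1 to 3. AIC1 was thus the more abundant influx carrier in all 6 libraries. The mean log2 ratio differed between genotypes by -0.65 (zmte1-2 minus WT), and the ranges overlapped (exact permutation p = 0.20, 0.45 after adjustment over 3 pairs of carriers).

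ABCB19, an ATP-driven transporter known from Arabidopsis stems for the long-distance flow of auxin towards the root, showed the largest log2 fold change of the 3 tested carriers. It lies on chromosome 2 from 6172436 to 6179335 on the plus strand. ABCB19 stood at 20.51, 12.32 and 15.78 FPKM in WT libraries 1 to 3 and at 2.45, 3.3 and 3.38 FPKM in zmte1-2 libraries 1 to 3. The mutant libraries lay close together and far below WT, and library 2 did not stand apart from the other two. The mean fell from 16.2 ± 4.11 to 3.04 ± 0.515 FPKM (SD, n = 3), a 5.32-fold lower mean, with a log2 fold change of -2.22 (SE 0.37, 95% interval -3.10 to -1.34, limma adjusted p = 0.0131). Median-of-ratios rescaling brought the log2 fold change to -1.15 and left the call in place (limma adjusted p = 0.0319). The call was lost when WT library 1, WT library 3 or library 1 of zmte1-2 was left out (limma adjusted p = 0.0542, 0.0731 and 0.0738). The log2 fold change then stayed between -2.22 and -2.04.

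The ratio of AIC1 to ABCB19 was 1.44, 1.99 and 2.73 in WT libraries 1 to 3 and 3.52, 0.70 and 4.38 in zmte1-2 libraries 1 to 3. ABCB19 exceeded AIC1 only in zmte1-2 library 2, where AIC1 was lowest. The log2 ratio did not differ between genotypes beyond its spread (difference 0.15, exact permutation p = 0.90, adjusted p = 0.90). The ratio of GRMZM2G149481 to ABCB19 was 0.537, 0.918 and 0.968 in WT and 2.62, 0.549 and 1.76 in zmte1-2 (log2 difference 0.80, exact permutation p = 0.30, adjusted p = 0.45). With 3 libraries per genotype none of these 3 tests could have gone below 0.10.

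PIN5, described in the table as PIN5a, belongs to the PIN proteins that in Arabidopsis lie in the endoplasmic reticulum and move auxin within the cell. It lies on chromosome 3 from 160795816 to 160799946 on the minus strand, and RefSeq's record of it also holds the ID GRMZM2G175983 as a synonym. PIN5 was listed at 0.27, 0.29 and 0.27 FPKM in WT libraries 1 to 3 and at 0.11, 0.05 and 0 FPKM in zmte1-2 libraries 1 to 3. The WT libraries were nearly equal, and every mutant library was lower. No library reached the minimum for the test. On log2(FPKM + 0.5) the difference was -0.49 (exact permutation p = 0.10), a scale on which a change at this level is strongly understated, and with a pseudocount of 0.1 it was -1.36. After median-of-ratios rescaling the difference was -0.24 (exact permutation p = 0.30), and the genotypes overlapped. Without the FPKM minimum limma gave an adjusted p of 0.0591, in a fit that called 22.1% of all listed genes lower. Of all listed genes 642, or 11.6%, stayed under 1 FPKM in every library, as both PIN5 and PIN9 did.

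PIN9, a PIN of monocots, lies on chromosome 3 from 187868057 to 187871142 on the plus strand. It was listed at 0.41, 0.36 and 0.54 FPKM in WT libraries 1 to 3 and at 0, 0.43 and 0.05 FPKM in zmte1-2 libraries 1 to 3. The genotypes overlapped, since zmte1-2 library 2 lay above WT libraries 1 and 2 while libraries 1 and 3 were at or near 0. The difference on log2(FPKM + 0.5) was -0.56 (exact permutation p = 0.30), and limma without the FPKM minimum gave an adjusted p of 0.122. Without zmte1-2 library 2 the difference was -0.83 (exact permutation p = 0.20, the smallest that these 5 libraries can give).

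PIN5 and PIN9 share the chromosome of the mutated gene. PIN5 lies 4.4 Mb and PIN9 22.6 Mb from ZmTE1. Of 26 other listed genes within 5 Mb of ZmTE1, PIN5 among them, 13 were below WT in every mutant library, beside 48.8% in the whole table. For chromosome 3 it was 46.8% of 596 genes. The part of linked differences between the line and B73 was not tested.

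In WT the order of mean levels was AIC1, ABCB19, GRMZM2G149481, PIN9 and PIN5. ABCB19 and GRMZM2G149481 overlapped in their libraries, and the other neighbours in this order did not. In zmte1-2 the order was AIC1, GRMZM2G149481, ABCB19, PIN9 and PIN5, and AIC1, GRMZM2G149481 and ABCB19 overlapped, as did PIN9 with PIN5. Among the listed genes AIC1 ranked between the 89.1 and 93.5 percentile of FPKM in the WT libraries and between 57.1 and 84.8 in the zmte1-2 libraries. ABCB19 moved from 79.4 to 84.8 in WT to 59.3 to 63.3 in zmte1-2. GRMZM2G149481 stood at 74.0 to 80.8 and at 52.5 to 76.0. PIN5 stood at 11.0 to 13.0 in WT and 2.23 to 11.4 in zmte1-2, and PIN9 at 13.8 to 17.7 and 2.84 to 26.8. These ranks use no scaling of libraries, and for GRMZM2G149481, PIN5 and PIN9 they overlapped between the genotypes.

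**Figure D2:**
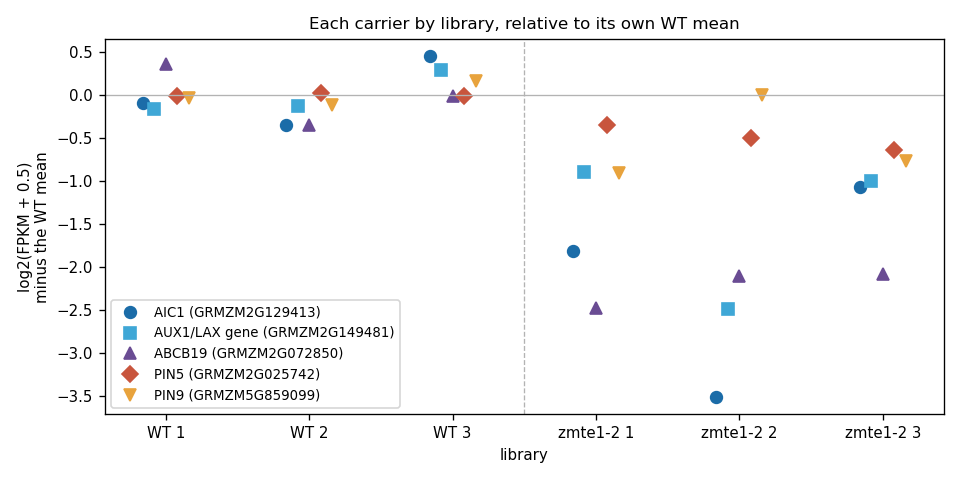
Each point is a carrier in a library, as log2(FPKM + 0.5) minus the mean of that carrier over the 3 WT libraries, with libraries along the horizontal axis. In zmte1-2 library 2 AIC1 and GRMZM2G149481 are at their lowest, ABCB19 and PIN5 lie between their values in libraries 1 and 3, and PIN9 is at the WT level.

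The carriers did not move together among the mutant libraries. Compared with the mean of libraries 1 and 3, zmte1-2 library 2 differed on log2(FPKM + 0.5) by -2.07 for AIC1, by -1.53 for GRMZM2G149481, by 0.17 for ABCB19, by -0.01 for PIN5 and by 0.83 for PIN9. Both influx carriers were therefore lower in this library and PIN9 was higher. These are differences between single libraries, for which there is no test.

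The genes whose profile was most like that of each carrier were taken from the tested genes by the root mean square difference of log2(FPKM + 0.5), each gene centred on its own mean over the 6 libraries. For AIC1 the nearest was GRMZM5G897944, whose protein is undescribed, at 8.81, 8.02 and 13.79 FPKM in WT and 2.13, 0.4 and 3.52 FPKM in zmte1-2 (root mean square difference 0.12). For GRMZM2G149481 the nearest were a glucan endo-1,3-beta-glucosidase (GRMZM2G478892, 0.12) and the protein MIZU-KUSSEI 1 (GRMZM2G397675, 0.14). GRMZM2G149481 itself came 89th in likeness to AIC1 at 0.47, and AIC1 came 389th in likeness to GRMZM2G149481. For ABCB19 the 3 nearest lay between 0.11 and 0.12 and included Rop guanine nucleotide exchange factor 7 (GRMZM2G065423), at 8.7, 5.18 and 6.73 FPKM in WT and 0.81, 1.09 and 0.86 FPKM in zmte1-2. For the weakly expressed PIN5 and PIN9 the pseudocount flattens the profile, so likeness says little. The nearest gene to PIN9 was GRMZM2G175576, described as an inactive cadmium and zinc ATPase (0.11), also nearer to WT in zmte1-2 library 2.

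The table holds 12 further carrier genes by orthology or description, 1 of the AUX1/LAX family, 3 PIN genes and 8 ABCB genes. Over all 17 carrier genes 11 could be tested, of which 7 passed as lower and none as higher with limma, beside 34.2% and 6.02% of all tested genes (8 lower and 0 higher at an unadjusted p under 0.05), with a median log2 fold change of -1.35 beside -1.08 for all tested genes. Of the 17, 13 were lower in every zmte1-2 library and none was higher in every one, beside 48.8% and 11.4% of all listed genes, and 4 overlapped. Without zmte1-2 library 2, 8 passed as lower and 2 as higher with limma, beside 1949 lower and 805 higher of all 3987 tested genes. The number of carrier genes called lower was 0 when WT library 1, WT library 3 or library 1 of zmte1-2 was out. Over all tested genes it was then 148, 2 and 1 in that order. Without WT library 2 it was 4, beside 1015 of all tested genes, and without zmte1-2 library 3 it was 2, beside 701.

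**Figure D3:**
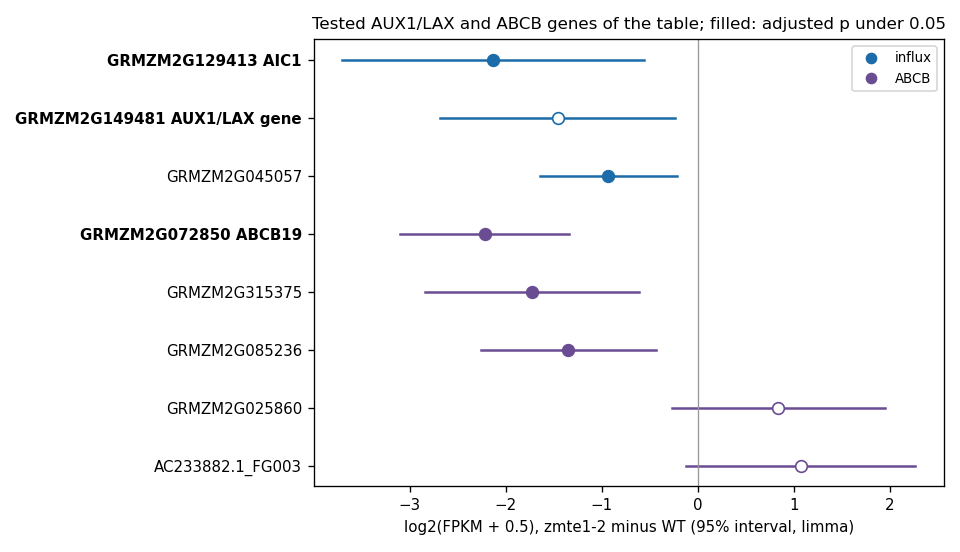
Points give the log2 fold change (zmte1-2 minus WT, log2(FPKM + 0.5), horizontal axis) of the tested AUX1/LAX and ABCB genes with 95% intervals from limma, coloured by family and filled where the adjusted p was under 0.05. The 5 carriers described here are in bold where tested. The points below 0 run from -2.22 for ABCB19 to -0.93 for GRMZM2G045057, and an ABCB15 and an ABCB9 gene, with open points, lie above 0.

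The remaining AUX1/LAX gene was the one the study names AIC2 (GRMZM2G045057, in the table an auxin transporter-like protein), at 3.27, 3.18 and 3.12 FPKM in WT libraries 1 to 3 and 1.22, 1.88 and 1.27 FPKM in zmte1-2 libraries 1 to 3. Its fall was the smallest of the influx carriers (log2 fold change -0.93, SE 0.30, limma adjusted p = 0.0475), and unlike AIC1 and GRMZM2G149481 it was highest in zmte1-2 library 2 among the mutant libraries. Summed over the 3 influx genes the FPKM was 43.8, 39.0 and 61.5 in WT and 16.3, 6.0 and 22.0 in zmte1-2. All 3 were lower in every zmte1-2 library than in any WT library, as were 48.8% of all listed genes. AIC1 gave the larger part of the sum in every WT library.

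Among ABCB genes, brachytic2 (PGP1, GRMZM2G315375) was the most abundant, at 54.26, 33.8 and 47.28 FPKM in WT and 10.97, 22.26 and 8.95 FPKM in zmte1-2. It passed as lower (log2 fold change -1.73, SE 0.47, limma adjusted p = 0.0346) and was highest in zmte1-2 library 2 among the mutant libraries. A gene described as ABCB19-like (GRMZM2G085236) stood at 32.2, 19.97 and 34.03 FPKM in WT and 9.98, 10.46 and 11.73 FPKM in zmte1-2 (log2 fold change -1.35, SE 0.38, limma adjusted p = 0.0372). Like ABCB19 it varied little among the mutant libraries. GRMZM2G167658, which the table also describes as ABCB19, was listed from 0.07 to 0.14 FPKM in WT and from 0 to 0.01 FPKM in the mutant, so that nearly all of the signal under that description came from GRMZM2G072850. The sequences of these genes were not compared, and no source used here says how reads that match several genes were counted. An ABCB15 gene (GRMZM2G025860) and an ABCB9 gene (AC233882.1_FG003) had higher means in zmte1-2 and did not pass (log2 fold changes 0.84 and 1.07, 95% intervals -0.27 to 1.95 and -0.12 to 2.26, limma adjusted p = 0.146 and 0.0985). The other 4 ABCB genes, GRMZM2G167658 being 1 of them, stayed under 1 FPKM in every library. They were lower in every zmte1-2 library, as were 48.8% of all listed genes.

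Proteins that place or switch auxin carriers were taken from a list of kinases, phosphatase subunits and NPH3 proteins, of which 10 were listed. Of 7 tested, 5 passed as lower and none as higher with limma, beside 34.2% and 6.02% of all tested genes (6 lower and 0 higher at an unadjusted p under 0.05), with a median log2 fold change of -1.28 beside -1.08 for all tested genes. The largest fall was in GRMZM2G108991, a regulatory subunit of protein phosphatase 2A, from 6.30 ± 1.38 to 1.48 ± 0.654 FPKM (SD over 3 libraries, log2 fold change -1.81, limma adjusted p = 0.0206). The most abundant was GRMZM5G812926, an NPH3 family protein, with a mean of 15.1 ± 3.36 FPKM in WT that fell to 5.90 ± 0.921 in the mutant (SD over 3 libraries, log2 fold change -1.28, limma adjusted p = 0.0373). Membership rests on orthology entries or protein descriptions, and not every phosphatase subunit or NPH3 protein acts on auxin carriers.

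Downstream of the carriers, auxin is read by TIR1 receptors, which remove Aux/IAA repressors from ARF transcription factors. Of 39 tested genes with an orthology of this pathway (Aux/IAA, TIR1, ARF, GH3 and SAUR), 17 passed as lower and 2 as higher with limma, beside 34.2% and 6.02% of all tested genes. Their median log2 fold change was -1.47 beside -1.08 for all tested genes. By family, 3 of 10 Aux/IAA genes, 2 of 3 TIR1 genes, 4 of 5 ARF genes and 8 of 20 SAUR genes passed as lower, and 1 Aux/IAA and 1 SAUR gene as higher. The single GH3 gene tested, GRMZM2G378106, was at 3.23, 3.81 and 7.13 FPKM in WT libraries 1 to 3 and at 12.16, 66.67 and 7.05 FPKM in zmte1-2 libraries 1 to 3, and did not pass (limma adjusted p = 0.0815). It was by far the highest in zmte1-2 library 2. The largest fall among the SAUR genes was in GRMZM2G015049 (log2 fold change -3.06, limma adjusted p = 0.0273) and among the receptors in GRMZM2G095786 (-1.64, limma adjusted p = 0.0273). Among the ARF genes it was in auxin response factor 4 (GRMZM2G034840, -2.08, limma adjusted p = 0.0114) and among the Aux/IAA genes in IAA27 (GRMZM5G825707, -2.55, limma adjusted p = 0.0460). IAA27 stood at 13.27, 6.52 and 6.26 FPKM in WT libraries 1 to 3 and at 0.22, 4.95 and 0.33 FPKM in zmte1-2 libraries 1 to 3. The genes that rose were the Aux/IAA gene GRMZM2G159285 (1.20, limma adjusted p = 0.0442) and SAUR33 (GRMZM2G400156, 1.21, limma adjusted p = 0.0435). The most abundant gene of each family passed only among the SAUR genes (GRMZM2G420812, -2.07, limma adjusted p = 0.0303). The others were the Aux/IAA gene GRMZM2G115357 (0.47, limma adjusted p = 0.620), the receptor GRMZM2G135978 (-1.17, limma adjusted p = 0.0533), auxin response factor 7 (GRMZM2G317900, 1.16, limma adjusted p = 0.117) and the GH3 gene. Aux/IAA gene GRMZM2G115357 stood at 650.2 FPKM in zmte1-2 library 2 and between 61.15 and 158.1 FPKM in the other 5 libraries.

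**Figure D4:**
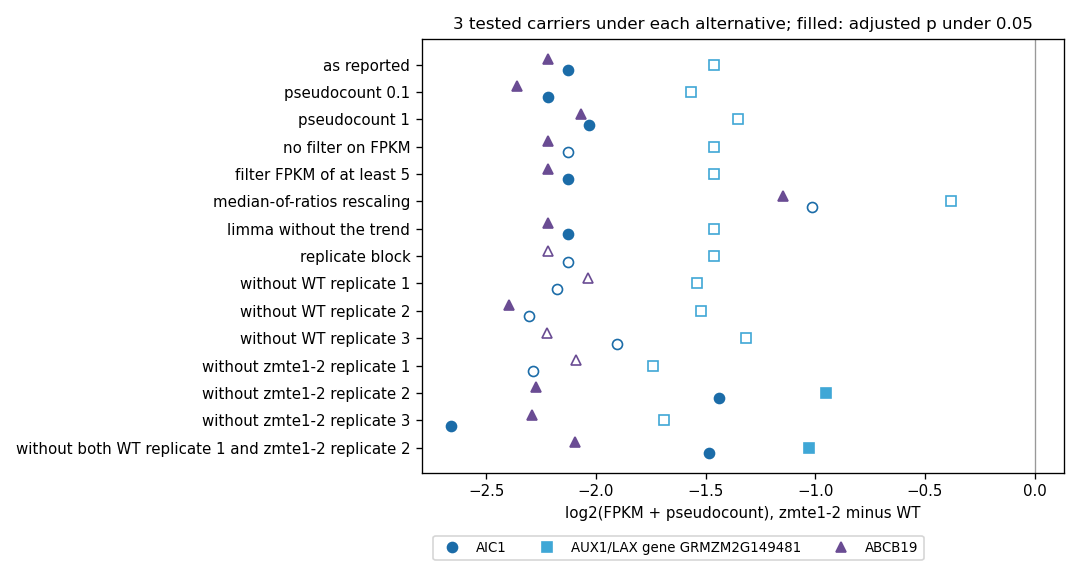
Points give the log2 fold change (horizontal axis, zmte1-2 minus WT) of AIC1, GRMZM2G149481 and ABCB19 as reported and under each alternative, filled where the adjusted p was under 0.05. All lie below 0, and rescaling by median of ratios moves each towards 0, to -1.02, -0.38 and -1.15.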

How the data were processed

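RNA-seq libraries of nodes from 3 WT and 3 zmte1-2 samples were grouped by their titles, in which each genotype runs from Node1 to Node3. The numbers 1 to 3 were taken as replicates, though the titles do not say whether they number replicates or node positions. The authors deposited 1 table with an FPKM value per gene and library, restricted to 5546 genes that they had called. No source used here names the aligner, the counting, the strand handling or the genome build. Its 12 columns of the authors' own log2 ratios, p-values and q-values were not used. The length column equals the genomic span in 100% of genes, so whole reads could not be recovered, no count model was run, and the depth is unknown. In 35 genes the KEGG orthology entry was not used here in full.

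With limma 3.58.1 in R 4.3.3 (moderated by eBayes with a trend on mean level, two-sided), log2(FPKM + 0.5) was tested for the 3987 genes that reached 1 FPKM in 3 or more libraries, and called at an adjusted p under 0.05. Single values used exact permutation tests (scipy 1.17.1). All members and lists were chosen with earlier results of these data known. Named were the 5 carriers, other AUX1/LAX and ABCB genes of the table (further PIN genes enter the counts and are not reported singly here), the called gene with the largest change in each direction and the most abundant gene of each other list, and, from the 3 genes most like each carrier, some. The list of ABCB genes as first worded had 33 genes, mostly MATE transporters that the word multidrug had caught. It was cut to 9 genes by orthology after the matches were seen. Alternatives were other pseudocounts (0.1 and 1), no FPKM minimum or one of 5, median-of-ratios rescaling, limma without the trend, the library number as a block, leaving out each library in turn, and WT library 1 and zmte1-2 library 2 left out together, since both stood apart in the earlier results. RefSeq (Zm-B73-REFERENCE-NAM-5.0) matched 12 of 17 carrier genes and all 5 described here, and was used for names only.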

Additional observations from a re-analysis of the deposited data

How the results depend on the processing

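All 5 carriers had a lower estimate in zmte1-2 under every alternative run for them, 14 for each tested carrier and 11 for PIN5 and PIN9. In the fit as reported 2688 of all 3987 tested genes also had a lower estimate, so the sign says little about carriers. The size was less stable than the sign. After rescaling it was -0.38 for GRMZM2G149481 (limma adjusted p = 0.739), -0.24 for PIN5 (exact permutation p = 0.30) and -0.21 for PIN9 (exact permutation p = 0.60). The number of carriers called lower, 2 as reported, was 1 without the FPKM minimum and 1 after rescaling, and lay between 0 and 3 with a library left out. No alternative called a carrier higher. AIC1 lost its call without the FPKM minimum (log2 fold change -2.13, limma adjusted p = 0.0525) and after rescaling (-1.02), and lay between -2.66 and -1.44 with a library left out. GRMZM2G149481 lay between -1.74 and -0.95 with a library left out and passed at -1.03 without both WT library 1 and zmte1-2 library 2. ABCB19 lay between -2.40 and -2.04 with a library left out. Of the 11 tested genes among the 17 carrier genes, 1 was lower and 1 higher after rescaling, beside 200 and 590 of all 3882 tested genes. Without both libraries 2 were higher, beside 755 of 3987. With a library left out 0 to 8 were lower and 0 to 2 higher, beside 1 to 1949 and 1 to 805 of all 3987. Of the 20 signalling genes tested with a minimum of 5 FPKM, 10 were lower and 1 higher, beside 782 and 178 of all 2128 tested genes. After rescaling 3 of 40 were lower, beside 200 of 3882, and without the minimum 0 of 49 were higher, beside 194 of 5546. Without both libraries 7 of 39 were higher, beside 755 of 3987. With a library left out 0 to 24 were lower and 0 to 8 higher, beside the ranges for all tested genes given above. With the library number as a replicate block AIC1 stood at -2.13 (limma adjusted p = 0.0727) and ABCB19 at -2.22 (limma adjusted p = 0.0636), and 0 of the 5 carriers, 0 of the 17 carrier genes and 0 signalling genes were lower, with 0 signalling genes higher. Only 2 genes of the whole table were called under this block, 1 lower and 1 higher. Whether the numbers pair the libraries is not stated in the sources used here. Deviations of same-numbered libraries from their group means correlated at -0.305, -0.398 and 0.406 across genes. The highest correlation was 0.517, between WT library 1 and zmte1-2 library 2. Only the libraries numbered 3 correlated best with their own number. These correlations cannot settle pairing, since the deviations within a genotype depend on each other and genes are not independent replicates. The cause of these changes was not tested. The depth is unknown, so how far it limits the values of PIN5 and PIN9, under 1 FPKM, cannot be said.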

Other observations

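Genes of auxin synthesis and turnover formed a further list. Of its 12 tested genes none passed as lower and 3 as higher with limma, beside 34.2% and 6.02% of all tested genes (0 lower and 6 higher at an unadjusted p under 0.05), with a median log2 fold change of 1.45 beside -1.08 for all tested genes. The most abundant was GRMZM2G091540, which carries an orthology of the enzymes that free auxin from its amino acid conjugates. It stood at 18.41, 37.46 and 16.7 FPKM in WT and 150.2, 109.4 and 86.45 FPKM in zmte1-2 (log2 fold change 2.29, SE 0.47, limma adjusted p = 0.0193), with no overlap between genotypes. Membership in this list rests on orthology entries or protein descriptions, and some of the orthology entries sit beside unrelated protein descriptions.

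The ABCB list as first worded, with its MATE transporters, had 6 genes lower and 5 higher of 24 tested with limma, beside the same shares of all tested genes, and a median log2 fold change of 0.97 beside -1.08.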
